A study of Mus musculus with 11 samples.

Results

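Colonic macrophages labelled EP4 knockout were compared with macrophages labelled wild type at day 0 of a dextran sodium sulphate (DSS) course, by RNA sequencing of sorted cells. The comparison holds 5 of the 11 libraries of the series, chosen by their titles: 3 of the strain Csf1r-EP4-/- (KO 1, KO 2 and KO 3) and 2 wild type (WT 1 and WT 2). Each group came from mouse colon cells sorted as CD45+ CD11b+ Ly6G- Ly6C- MHCII+ CD64+. The labels give every library, day 0 included, the same treatment of 2.5% DSS in drinking water for 5 days, so what day 0 means relative to that treatment is not given, and neither is the age of the mice. The strain name pairs EP4 with Csf1r, the receptor of a macrophage growth factor, but the labels name no Cre line, deleted exon or promoter. Nothing states whether libraries of a group came from separate mice, so p-values measure only the spread between libraries. In the main test of single genes that spread was estimated over all 11 libraries, not over the 5 of day 0 alone. The second WT library is titled number 2, while its deposited file is headed number 3.

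EP4, encoded by Ptger4, is a receptor for prostaglandin E2. It couples to the stimulatory G protein Gs, which raises cyclic AMP (cAMP), and cAMP acts through protein kinase A on transcription factors such as CREB, whose targets include immediate-early genes of the Nr4a, Fos and Dusp1 type. In macrophages this pathway is known to restrain inflammatory cytokines and to shape antigen presentation and tissue repair. Colonic resident macrophages are known for high MHC class II, complement C1q and Cx3cr1.

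The day 0 libraries held 4325880 to 14207919 counts, with KO libraries the deeper ones. KO libraries had 3138 ± 894 (SD, n = 3) genes with at least 100 counts and WT libraries 2126 ± 370 (SD, n = 2), a ratio of 1.48 (two-sided exact permutation p = 0.2, the smallest that 3 against 2 libraries allow). The ratio was 1.42 after every library was thinned to the smallest total. Counts of 1 gene often jumped from 0 to a high count between libraries of 1 group, and only 393 genes had at least 100 counts in all 5 libraries. Those 393 genes held 37.2% to 47.6% of the counts of a library. Ptger4 itself had 1350, 0 and 890 counts in KO and 0 and 0 in WT. The targeted gene thus went against the labels in KO 1 and KO 3, and directions below refer to the libraries as labelled. At day 39 Ptger4 had 1, 8 and 4501 counts in KO and 1481, 152 and 7286 in WT. Reads of this kit lie near the 3′ end, and transcripts with an internal exon deleted can still give counts. Whether that, or an error in the labels, applies to the Ptger4 counts was not tested. The sort markers were patchy too: Ptprc (CD45) had 2407, 1 and 104 counts in KO and 8 and 2 in WT, Itgam (CD11b) 132, 2127 and 0 against 2562 and 1855, and Fcgr1 (CD64) 2059, 0 and 0 against 309 and 0. The genes of the Ly6C- gate were not absent, with Ly6c1 at 0, 2323 and 0 counts in KO and 1 and 0 in WT and Ly6c2 at 459, 25 and 0 against 1 and 0. H2-Ab1, of the MHCII gate, was well counted throughout, from 30168 to 70551.

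The KO libraries were not alike. Over the 393 genes well counted in all 5 libraries, the Spearman correlation of KO 2 with KO 3 was 0.68, while KO 1 correlated at 0.54 with WT 1 and 0.53 with WT 2 and only at 0.35 and 0.39 with the other KO libraries. WT 2 correlated at 0.44 with KO 2, at 0.49 with KO 3 and at 0.43 with WT 1. These correlations are across genes of single libraries and are descriptions. Fast skeletal muscle genes also divided the libraries. Their summed level was 28004 and 25588 CPM (counts per 1000000 counts of the TMM-scaled library) in KO 2 and KO 3, 11896 CPM in WT 2, 3328 CPM in KO 1 and 3206 CPM in WT 1. The resident macrophage list, 30 genes such as Csf1r, Cx3cr1, C1qa and Apoe, ran the other way, at 14864 and 13080 CPM in KO 2 and KO 3 and 27422 to 37415 CPM in the other 3 libraries. Both groups were thus mixed, KO with 2 libraries rich in muscle transcripts and 1 poor in them, and WT with 1 of intermediate level (WT 2) and 1 poor in them (WT 1). List counts without KO 2 and KO 3, which leave KO 1 against both WT libraries, are given with most gene lists below.

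**Figure D1:**
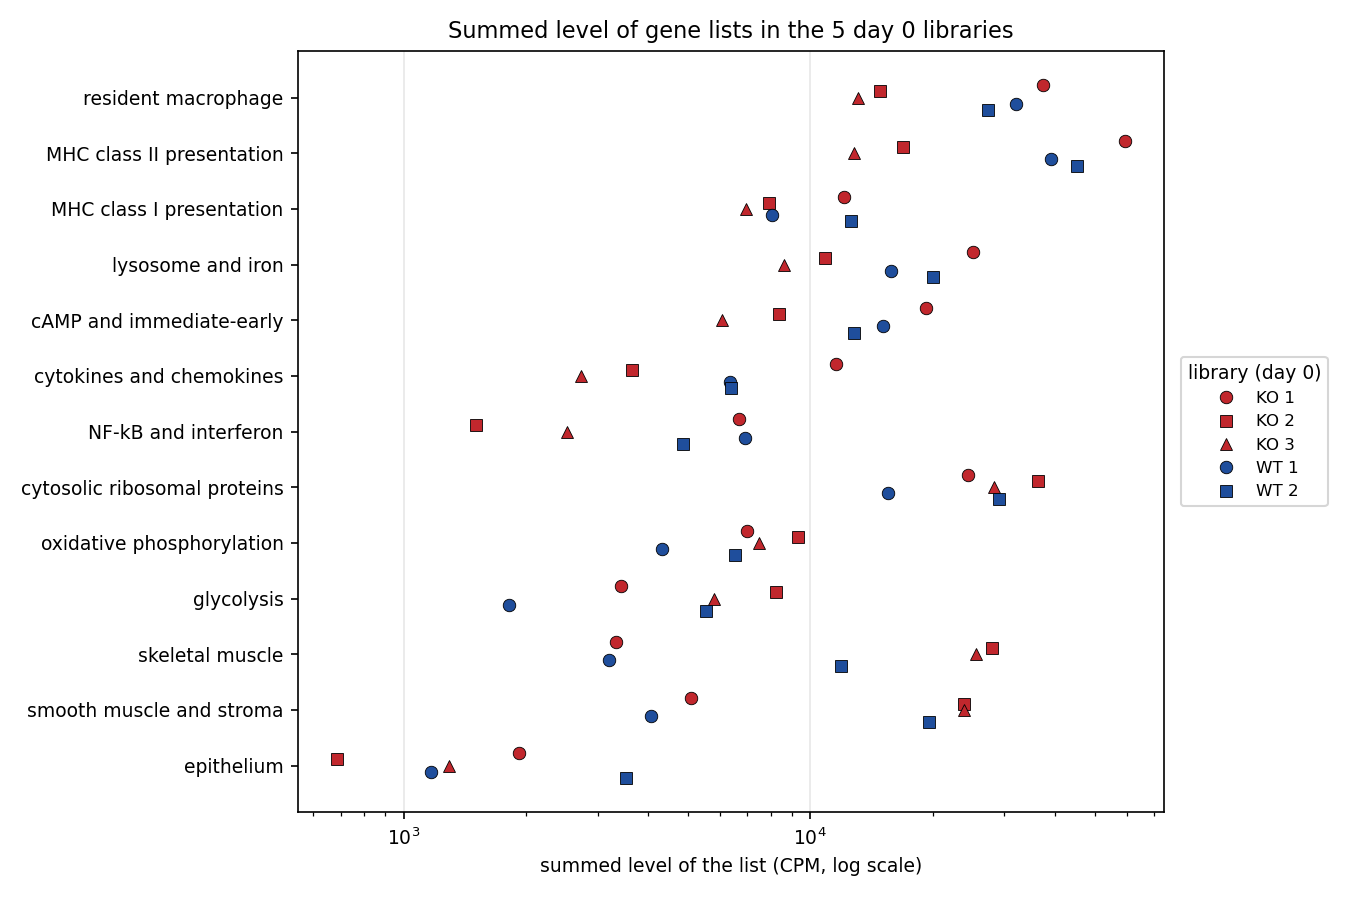
Summed level of 13 gene lists (rows) in CPM on a log scale, 1 point per day 0 library, with KO libraries in red and WT libraries in blue. KO 2 and KO 3 lie lowest for the resident macrophage and MHC class II lists and highest for skeletal muscle and stroma, while KO 1 lies near or above the WT libraries for the immune lists.

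Across the transcriptome, 1 of 6987 tested genes passed at day 0 (0.0143%), and it was lower in KO. Here and below, "passed" refers to the edgeR fit with TMM scaling unless another test is named. This gene was Lgals6, which encodes a galectin of intestinal epithelium. It had 0, 0 and 4 counts in KO and 1 and 3813 in WT. A single library, WT 2, was high, and WT 1 lay within the range of the KO libraries. The log2 fold change was -11.88 ± 2.63 (SE), with an edgeR adjusted p of 0.0448. Without WT 2 it was -0.63 with an edgeR adjusted p of 1, and over 18 alternatives the adjusted p ran from 0.000311 to 1. Lgals6 has a near-identical copy, Lgals4, which had no count in these libraries, so the assignment of its reads is uncertain. An unadjusted edgeR p under 0.05 was found for 143 genes higher in KO (2.05%) and 415 lower (5.94%). Every KO library lay above every WT library for 470 genes (6.73%) and below for 367 (5.25%).

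The centre of the fitted fold changes moved with the scaling and the libraries kept. Their median over all tested genes was 1.08 on the log2 scale, and 58.1% of the genes had a value above 0. With the 2669 genes that had no count in all libraries of a group set to their bound against a floor of 3 counts per library, the median was 0.57. Over the 393 well counted genes it was -0.10, and 182 of these lay above 0. Over all tested genes it was 0.84 with DESeq2 size factors, 0 with upper-quartile scaling and 0 without KO 2 and KO 3. Leaving out KO 3 alone also gave 0, and leaving out WT 1 gave 3.28. Both WT libraries had 3 or fewer counts for 3253 tested genes, against 1453 for all 3 KO libraries. The KO libraries were deeper and had more members, and the part of either in these counts was not tested.

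**Figure D2:**
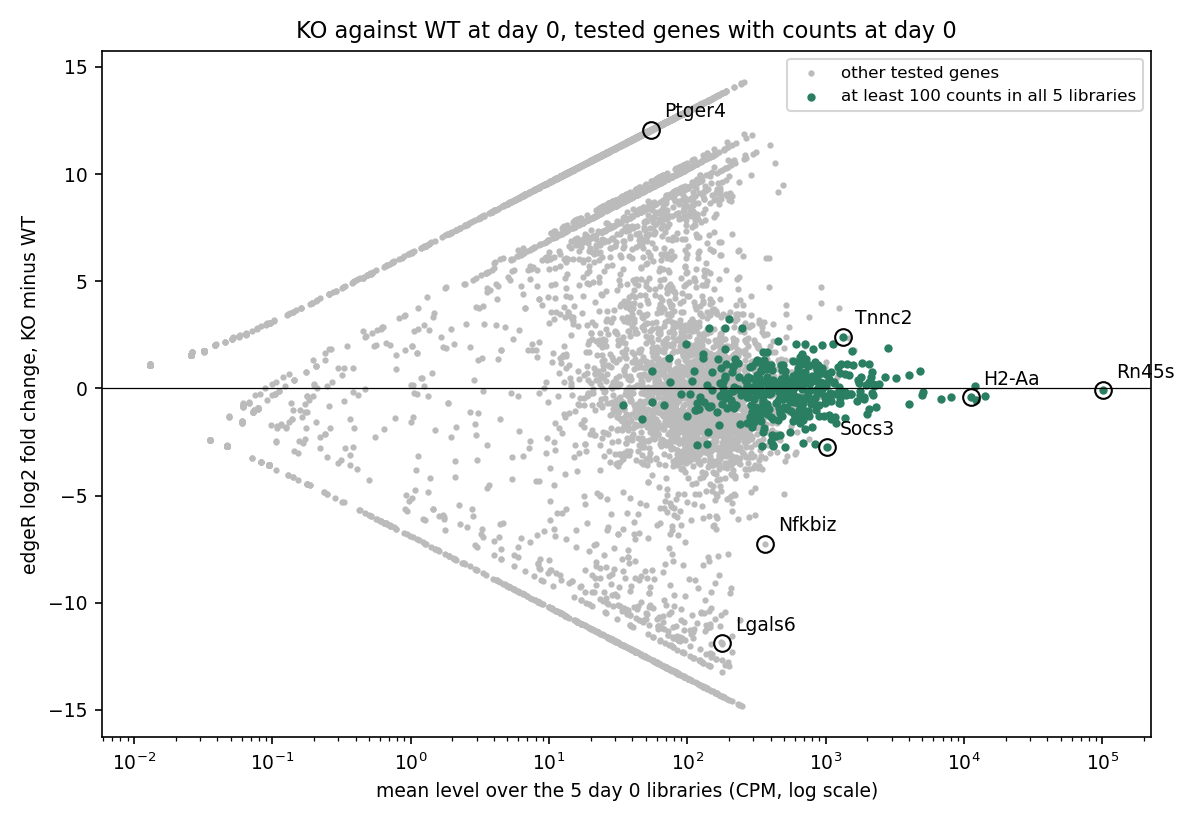
The edgeR log2 fold change of KO against WT (vertical axis) against the mean level over the 5 day 0 libraries in CPM (log scale) for each tested gene with a count at day 0. Genes with at least 100 counts in all 5 libraries (green) lie nearer to 0, with Socs3 at -2.74 and Tnnc2 at 2.42 marked, while the grey genes that were near 0 counts in some libraries fan out, Lgals6 and Nfkbiz among them.

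Among abundant genes whose groups did not overlap, the smallest p was that of Nfkbiz, which encodes IkappaB-zeta, an inducible nuclear regulator of NF-kB target genes. It had 95, 0 and 40 counts in KO and 5419 and 3614 in WT. Its level was 5.96 CPM ± 8.16 (SD, n = 3) in KO and 909.8 CPM ± 82.4 (SD, n = 2) in WT, 153-fold higher in WT. The 3 KO libraries were all far below both WT libraries, KO 1 included. The log2 fold change of -7.25 ± 1.88 (SE) had an unadjusted p of 0.000113 and did not pass over all genes (edgeR adjusted p = 0.197). Its sign held under all 19 alternatives, where the adjusted p ran from 0.00517 to 0.85. Without KO 2 and KO 3 the log2 fold change was -5.99 (edgeR adjusted p = 0.85). It passed under 2 alternatives, DESeq2 and the edgeR fit without KO 1, in which it was 0.0237. At day 39 the gene had 4139, 1377 and 8785 counts in KO and 2291, 1369 and 5072 in WT, so the groups overlapped there. Between the 2 days the genotype effect differed by 8.16 ± 2.29 (SE) on the log2 scale (edgeR adjusted p = 0.324).

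Among genes with a mean of at least 100 CPM and at least 100 counts in every library of the higher group, 175 were above WT in every KO library and 169 were below. The 10 of each direction with the smallest p were taken as examples, and none of them passed (edgeR adjusted p = 0.381 for all except Nfkbiz). Msr1, the class A scavenger receptor of macrophages, had 368, 2959 and 4799 counts in KO and 1 and 1 in WT. Itga6, an integrin subunit that binds laminin, had 1064, 1165 and 3748 counts in KO and again 1 and 1 in WT. Klf9, a glucocorticoid-responsive Krüppel-like factor, had 2471, 4056 and 464 counts in KO and 0 and 2 in WT. In these genes the WT libraries were at or near 0. The KO libraries differed among themselves, less so in CPM for Itga6, at 171, 150 and 245.

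Hnrnpa0, an RNA-binding protein, had 1631, 1157 and 2804 counts in KO and 0 and 4 in WT. Map4k4, a stress-activated kinase, had 2400, 1426 and 6548 in KO and 1 and 2 in WT. Nptn, the adhesion protein neuroplastin, had 1371, 2586 and 3254 in KO and 0 and 0 in WT, at least 411-fold higher than the WT floor of 3 counts per library. The other genes higher in all KO libraries were Wdr26, a ubiquitin ligase component (728-fold by the ratio of means), the endoplasmic reticulum channel Tmco1, the tubulin Tuba4a and the beta-catenin inhibitor Ctnnbip1. Wdr26, Tuba4a, Ctnnbip1, Klf9 and Nptn overlap other genes in RefSeq, and their counts are uncertain because the counting is not described.

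Beside Nfkbiz, the genes lower in all KO libraries were mostly without any count there. Sf3b4, a splicing factor subunit, had 0 counts in all 3 KO libraries and 1944 and 3597 in WT, at least 1684-fold higher than the KO floor. Klhl28, a Kelch-like protein, had 2239 and 3539 in WT, at least 1739-fold higher, and Tbc1d10a, a Rab GTPase-activating protein, 388 and 4652, at least 1643-fold higher. Arhgef39, Amph, Mier2 and Ppic also had 0 counts in every KO library and 932 to 4325 counts in WT. Spop, the substrate adaptor of a cullin ubiquitin ligase, had 4, 1 and 0 counts in KO and 1258 and 2081 in WT. Dgkz, a diacylglycerol kinase, had 0, 2 and 0 against 1960 and 2994. Arhgef39, Sf3b4, Klhl28, Amph and Dgkz overlap other genes in RefSeq. Several of these genes were absent or erratic at day 39 as well: Klhl28 had 0, 0 and 1 counts in KO and none in WT there, and Amph had none in any of the 6 libraries. None of the 372 values of these 20 genes under the alternatives changed sign, which the choice of genes without overlap makes likely.

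**Figure D3:**
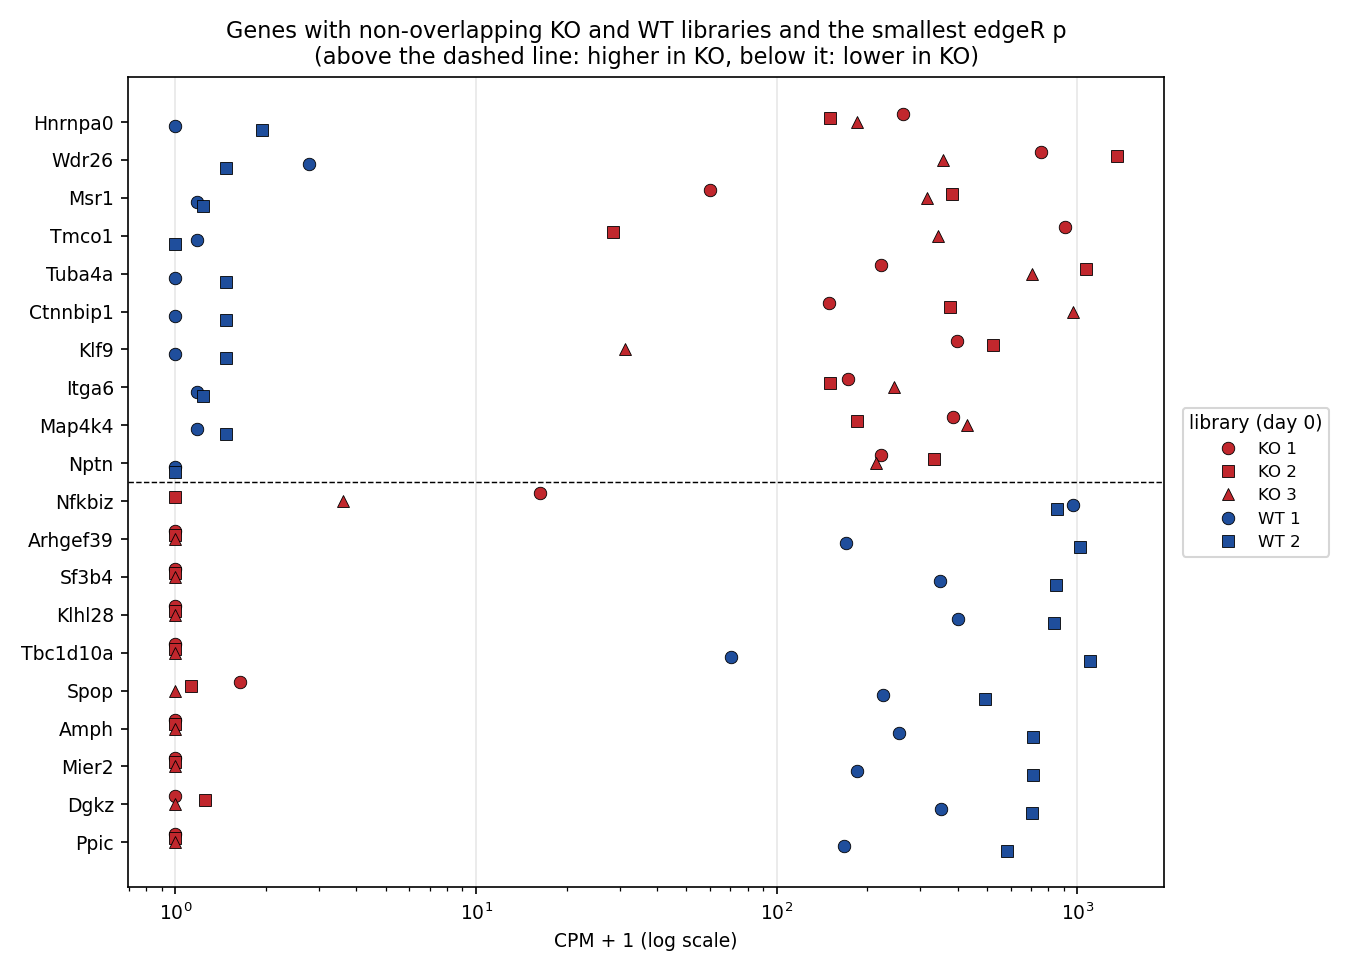
Level (CPM + 1, log scale) of the 10 genes higher and the 10 lower in every KO library that had the smallest edgeR p, 1 point per day 0 library (red KO, blue WT). The lower value of each gene is at or near 0 counts in most cases, and Nfkbiz has the WT values 968 and 852 CPM.

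A steadier view comes from the 393 genes with at least 100 counts in all 5 libraries. Of these, 22 (5.6%) were higher and 35 (8.91%) lower in every KO library, by 1.59 to 7.11-fold and 1.21 to 6.68-fold in the ratio of means. None passed in edgeR, and 2 had an unadjusted edgeR p under 0.05, both lower in KO. The examples from these 57 genes were chosen after their values were seen. Socs3, the feedback inhibitor of cytokine signalling through STAT3, had 2873, 1435 and 4458 counts in KO and 13730 and 7306 in WT, or 313 CPM ± 140 (SD, n = 3) and 2087 CPM ± 517 (n = 2). Every KO library was below both WT libraries, at a log2 difference of -2.74 with an SE of 1.39 (edgeR adjusted p = 0.381). Sprr2a2, a small proline-rich epithelial protein from a family of near-identical copies, had 230, 530 and 155 counts against 2176 and 370.

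The other well counted genes lower in every KO library were of many kinds, among them the ribosomal protein genes Rpl22 and Rpl7 and the respiratory chain genes Ndufa1 and Uqcrq. Mgl2 (CD301b, a lectin of macrophages and dendritic cells) had 3472, 510 and 1094 counts against 9109 and 4646, a log2 fold change of -2.55 ± 1.99 (SE). Unc93b1, which carries nucleic acid-sensing Toll-like receptors to endosomes, was at 238, 122 and 115 CPM in KO and 936 and 1135 CPM in WT. For Unc93b1 and Socs3 KO 1 lay nearer to the other KO libraries than to WT. Klf6 was at 821, 551 and 487 CPM against 1755 and 1296 CPM, and the antioxidant enzyme gene Gpx1 at 59.6, 394 and 80.9 CPM against 710 and 956 CPM. Unc93b1, Mgl2, Klf6 and Gpx1 had edgeR adjusted p-values of 0.387, 0.473, 0.552 and 0.615.

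In the opposite direction, the well counted gene with the smallest p was Tnnc2, a troponin of fast skeletal muscle. It was at 422, 2788 and 2686 CPM in KO and 374 and 358 CPM in WT, so KO 1 was barely above WT. S100a6, a calcium-binding protein of fibroblasts and other cells, was at 548, 1378 and 952 CPM against 394 and 338 CPM. The chaperone gene Hspa5 was at 1340, 1330 and 851 CPM against 658 and 814 CPM. Of the 22 genes, 6 encoded ribosomal proteins, against 2 of the 35 lower genes and 69 of all 393. Rpl8 was at 884, 1049 and 1118 CPM in KO and 336 and 148 CPM in WT, the narrowest KO spread of these examples. None of these genes passed, with edgeR adjusted p-values of 0.39 for Tnnc2, 0.57 for S100a6, 0.882 for Hspa5 and 0.539 for Rpl8. Ribosomal protein genes have many processed pseudogenes, so their counts are uncertain.

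Muscle genes were high in KO 2 and KO 3 and low in KO 1. Of the 17 tested skeletal muscle genes, 16 had a log2 fold change above 0, with a median of 2.13 against 1.08 over all tested genes, and none passed. Tnnc2, Mb, Tcap and Casq1 were higher in every KO library (4 of 17 against the 6.73% of all tested genes). Acta1, skeletal muscle actin, had 4935, 48708 and 73541 counts in KO and 3345 and 6665 in WT. Myh4, a fast myosin heavy chain, had 22, 24416 and 52590 counts in KO and 764 and 3061 in WT, with the lowest value of all 5 in KO 1. Pvalb, the calcium buffer parvalbumin of fast fibres, had 9, 22465 and 30153 counts against 2 and 3149. Without KO 2 and KO 3, 13 of 17 muscle genes were lower in KO (median -1.14). With upper-quartile scaling, which moved the median of all genes to 0, 7 of 17 were higher and 10 lower (median -0.39).

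Stromal genes followed the same libraries. The summed level of 17 smooth muscle and stroma genes was 23923 and 23911 CPM in KO 2 and KO 3 and 19568 CPM in WT 2, against 5101 CPM in KO 1 and 4049 CPM in WT 1. Col1a1 (type I collagen) was at 2122, 9193 and 6083 CPM in KO and 860 and 5776 CPM in WT, a log2 difference of 0.81 with an SE of 0.75 (edgeR adjusted p = 0.578). Sparc, a collagen-binding matrix protein, had 2211, 39578 and 35776 counts against 3386 and 10185. The contractile genes of intestinal smooth muscle were largely missing, with Myh11 at 0, 0 and 1290 counts in KO and 0 and 0 in WT and Actg2 at 0, 0 and 1 against 0 and 0. Of the 16 tested genes of this list, 11 were above 0 (median 0.80), against a median of 1.08 over all tested genes, and the count became 3 of 17 without KO 2 and KO 3.

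Markers of other blood and gut cells were uneven, many at 0 and a few high in 1 or 2 libraries. Epithelial genes summed to 1925, 687 and 1295 CPM in KO and 1167 and 3515 CPM in WT, and the part of WT 2 above the rest was led by Lgals6 at 898 CPM. Of 11 neutrophil genes in the files, S100a9, Camp, Ngp, Ltf and Elane had no count, and the list reached 85.4 CPM in WT 1 (Retnlg, 477 counts) and 42.5 CPM in KO 3 (Csf3r, 649 counts). Of the T and NK cell genes, Cd3e, Cd3g, Cd8a and Lck had no count. The T and NK cell list still summed to 169 CPM in KO 2 and 341 CPM in KO 3, from Il7r with 1315 counts in KO 2 and Thy1 with 5208 in KO 3. Ms4a1 and Pax5 (B cells) and Cdh5, Kdr and Vwf (endothelium) also had 0 counts in all 5 libraries. Jchain, of plasma cells, had 1178 and 2 counts in WT and none in KO, and the B and plasma cell list summed to 21.1 CPM in KO 1 and 0 CPM in KO 2 and KO 3. The endothelial list reached 382 CPM in KO 2 and 662 CPM in WT 1, where Lyve1 had 1173 and 3702 counts. Mast cell genes were above 1 count in KO 2 and KO 3 alone, with Mcpt4 at 3862 counts in KO 3 and Tpsb2 at 2667 in KO 2, while WT 2 had 1 count each of Tpsb2 and Cpa3 and no other listed mast cell gene was counted in KO 1, WT 1 or WT 2. Fat cell genes also differed among the libraries, with Adipoq at 8, 3536 and 1135 counts in KO and 0 and 4 in WT, while Fabp4 had 18, 2265 and 1 against 3242 and 4 and the list summed to 4.5, 1832 and 212 CPM against 738 and 2.12 CPM. The part of muscle, stroma and the other cell types in the differences between KO and WT was not tested. In such bulk samples, fewer cells of a type and less RNA per cell cannot be told apart.

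No resident macrophage gene passed in edgeR. Of 27 tested, 10 had a log2 fold change above 0 and 17 below (median -0.37), none was higher in every KO library (beside 6.73% of all tested genes), and Maf alone was lower in every one (3.70%, beside 5.25%). The counts were 14 above and 15 below of 29 (median -0.074) without KO 2 and KO 3, 6 and 21 of 27 (median -1.38) without KO 1, and 2 and 25 (median -1.96) with upper-quartile scaling. Apoe, a lipid carrier made in quantity by macrophages, was at 15008, 8990 and 7014 CPM in KO and 15570 and 14263 CPM in WT. C1qa, a chain of complement C1q, was at 7277, 847 and 984 CPM against 2452 and 1772 CPM. Csf1r was at 1506, 917 and 798 CPM against 1398 and 1150 CPM, with KO 1 highest of all. KO 1 was above both WT libraries for 10 of the 27 genes and below both for 2. Apoe had a log2 difference of -0.53 with an SE of 0.46 (edgeR adjusted p = 0.527), which stayed negative under all 19 alternatives and passed with limma-voom (adjusted p = 1.85e-18), and Maf had -1.33 ± 2.37 (edgeR adjusted p = 0.877).

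MHC class II genes leaned lower in KO, and none passed in edgeR. Of 14 tested, 13 had a log2 fold change below 0 (median -1.54), and 13 did so under DESeq2, library-size and upper-quartile scaling too. The count stayed at 13 of 14 when KO 1, KO 2 or KO 3 alone was left out, and was 11 of 16 without WT 1 (median -0.64) or WT 2 (median -0.24). The median was nearer to 0 under other filters. It was -0.59 at a mean of at least 10 counts (12 of 15 below 0) and -0.62 at a mean of at least 1000 (9 of 10). Without a filter it was -0.53 (13 of 17). Only Lgmn, a lysosomal protease that trims antigens, was lower in every KO library (1 of 14 against 5.25% of all genes). H2-Aa, the class II alpha chain, was at 21826, 3374 and 4385 CPM in KO and 13304 and 13081 CPM in WT. KO 1 had the highest level of all 5 libraries, and KO 2 and KO 3 the lowest, with the WT values close together. The same order held for H2-Eb1 (14513, 4389 and 2609 CPM against 8929 and 10053 CPM), H2-Ab1 (11337, 3879 and 2433 CPM against 6815 and 9811 CPM) and the invariant chain Cd74 (7137, 4191 and 2241 CPM against 5359 and 5920 CPM).

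H2-Aa had a log2 difference of -0.42 with an SE of 0.47 (edgeR adjusted p = 0.688). It was -1.77 ± 0.41 without KO 1 (edgeR adjusted p = 0.0235) and 0.63 without KO 2 and KO 3, and over the 19 alternatives its adjusted p ran from 6.78e-21 (limma-voom) to 1. With limma-voom H2-Eb1 and H2-Ab1 passed as well (adjusted p = 2.2e-09 and 3.87e-05). Without KO 2 and KO 3, 6 class II genes of 16 tested were above 0 and 8 below (median -0.14), and the abundant H2-Aa, H2-Eb1, H2-Ab1 and Cd74 were above 0. Relative to the summed resident macrophage list, the class II list stood at 1.58, 1.13 and 0.98 in KO and 1.22 and 1.66 in WT, and these ranges overlapped. The peptide editor H2-DMb1 had 4987, 0 and 827 counts in KO and 3876 and 9611 in WT, and the transactivator Ciita 0, 0 and 1368 against 281 and 1760.

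**Figure D4:**
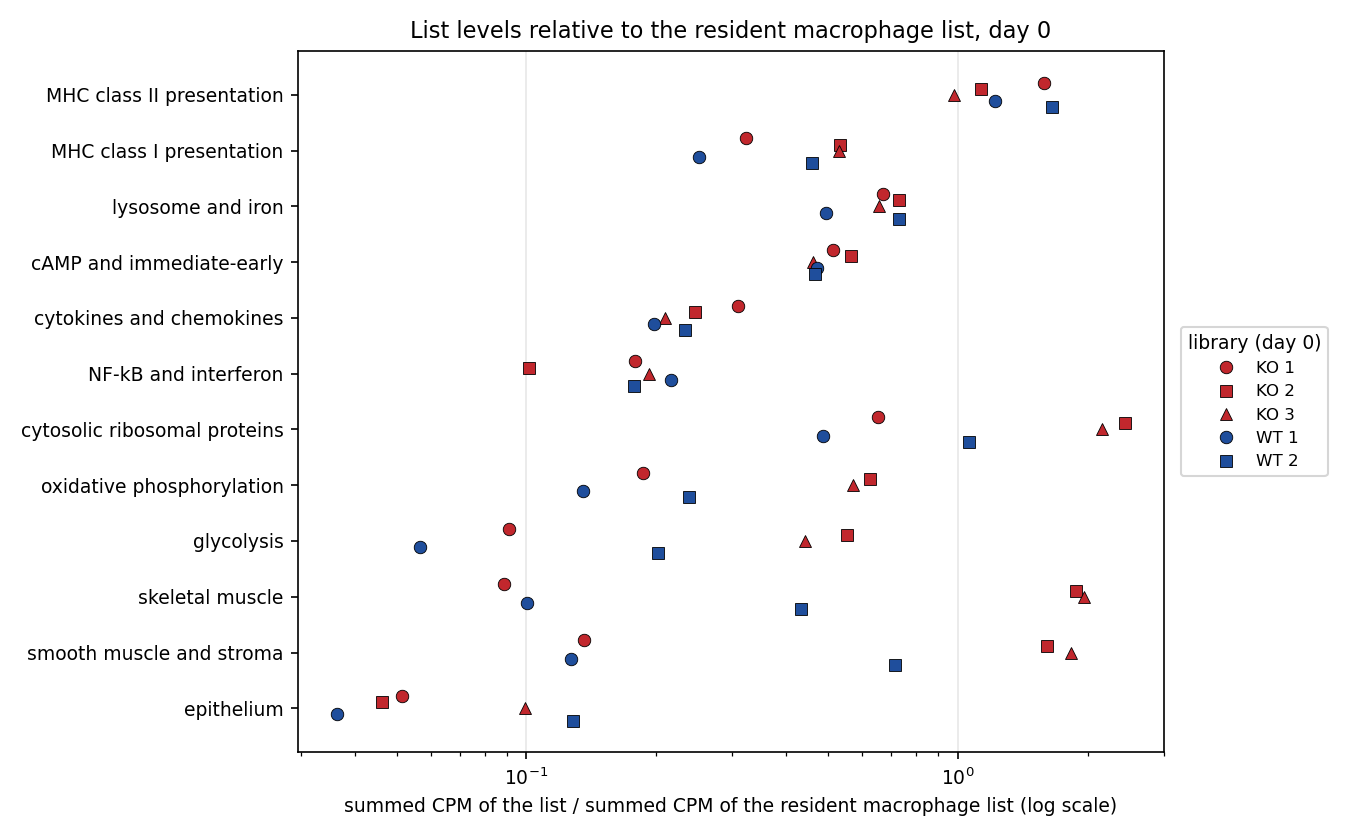
Summed CPM of 12 gene lists divided by the summed CPM of the resident macrophage list in the same library (log scale), 1 point per day 0 library (red KO, blue WT). The 5 libraries nearly coincide for the cAMP and immediate-early list, between 0.46 and 0.56, and spread widely for skeletal muscle, from 0.089 to 1.96.

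Class I genes and lysosomal genes gave no uniform direction. Of 15 class I genes tested, 5 were above 0 and 10 below (median -0.38), which became 7 and 7 (median 0) without KO 2 and KO 3. The immunoproteasome subunit Psmb8 was higher in every KO library (1 of 15, 6.67%, beside 6.73% of all tested genes), with 1411, 1173 and 1111 counts against 214 and 30. Tap1, a peptide transporter, had 0, 1 and 706 counts against 1251 and 2091, and with the immunoproteasome subunit Psmb10 and the chaperone Canx it was lower in every KO library (3 of 15 against 5.25%). B2m, the shared light chain of class I, was at 3464, 4642 and 2814 CPM in KO and 2365 and 2822 CPM in WT. None of these passed (edgeR adjusted p = 0.826 for Psmb8, 0.513 for Tap1 and 0.873 for B2m). Of 25 lysosome and iron genes, 8 were above 0 and 17 below (median -0.22), which became 12 and 13 (median -0.27) without KO 2 and KO 3. Hexa, a hexosaminidase subunit, had 1735, 1911 and 357 counts against 0 and 4 (edgeR adjusted p = 0.381), and Psap, which activates sphingolipid breakdown, was at 9173, 1787 and 3492 CPM against 5255 and 5535 CPM.

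The genes closest to EP4 signalling itself are those of the cAMP response, listed as 25 immediate-early and CREB-linked genes, of which 23 were tested. Of these, 11 had a log2 fold change above 0 and 12 below (median -0.16), and none passed in edgeR. Their summed level was 19229, 8395 and 6051 CPM in KO and 15125 and 12811 CPM in WT. The same KO 1 high, KO 2 and KO 3 low order was seen as for the macrophage list, and relative to that list the level was 0.51, 0.56 and 0.46 in KO and 0.47 and 0.47 in WT. Per unit of macrophage transcripts, then, KO 1 and KO 2 were above and KO 3 just below both WT libraries. Without KO 2 and KO 3, 12 of the 23 were above 0 and 10 below (median 0.39). The median was -1.19 without KO 1 (7 above 0 and 15 below) and 0.57 without WT 1.

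Dusp1, a phosphatase of MAP kinases, was the abundant member with separated groups. It had 7591, 2493 and 6750 counts in KO and 11906 and 7857 in WT, or 1220, 320 and 442 CPM against 2127 and 1851 CPM. All KO libraries were lower, at a log2 difference of -1.59 with an SE of 1.23 (edgeR adjusted p = 0.47). The AP-1 genes overlapped between the groups: Fos was at 1694, 448 and 409 CPM against 1122 and 828 CPM, Jun at 3173, 974 and 805 CPM against 1861 and 2717 CPM, Junb at 4153, 1669 and 292 CPM against 3324 and 1428 CPM, and Jund at 2091, 1077 and 356 CPM against 1097 and 631 CPM. Nr4a1, an orphan nuclear receptor induced by cAMP, had 9198, 303 and 5618 counts in KO and 2724 and 9 in WT (log2 fold change 1.36 ± 2.10, edgeR adjusted p = 0.845). Egr2, an early growth response factor, was higher in every KO library, with 651, 1954 and 1425 counts against 0 and 2 (edgeR adjusted p = 0.402). Creb1 (1197, 119 and 0 against 1702 and 2912) and Sik1 (1, 0 and 0 against 1 and 1864) were lower in every one, making 1 higher and 3 lower of 23, beside 6.73% and 5.25% of all tested genes. For Sik1 the separation rested on 1 count in WT 1.

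**Figure D5:**
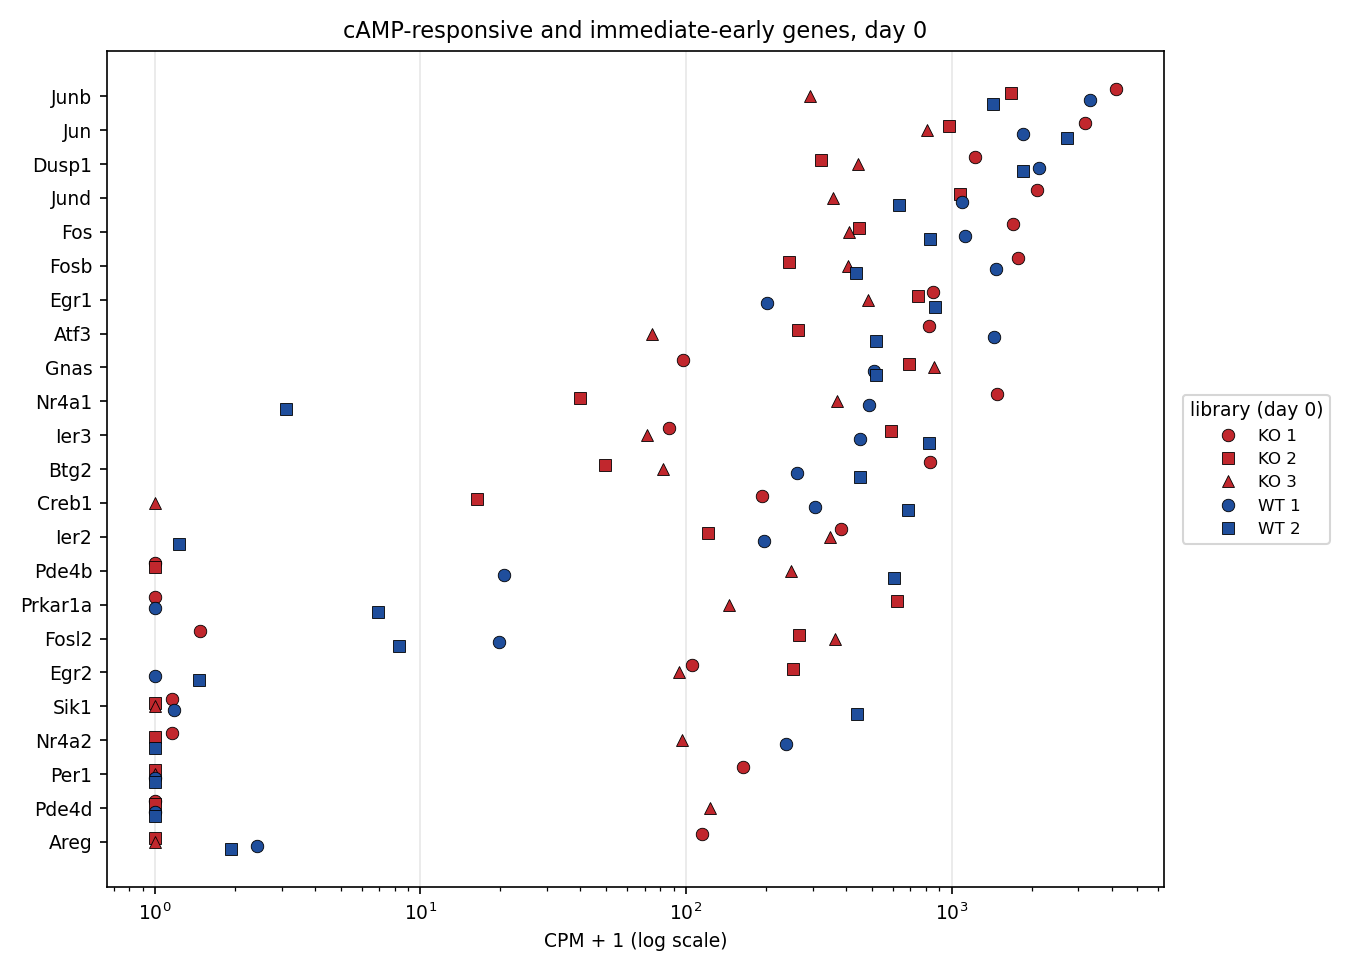
Level (CPM + 1, log scale) of the cAMP-responsive and immediate-early genes with at least 100 counts in some day 0 library, ordered by their mean, 1 point per library (red KO, blue WT). The abundant AP-1 genes overlap between genotypes, Dusp1 lies lower in all KO libraries, and the rarer genes jump between 0 and high levels within a genotype.

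The list was compiled from immediate-early and CREB-linked genes, so a higher share of promoters with letters that CREB is known to bind may be built into that choice, and the shares are a description with no test. The full palindrome TGACGTCA was found in 3 of the 21 list members with an entry in the RefSeq promoter table (14.3%) and in 507 of 27025 promoters (1.88%), searched in 250 bases before to 50 after each gene's start. The shorter TGACG, on either strand and counting those inside the palindrome, was found in 13 of 21 (61.9%) against 21.0% of all promoters. The 3 promoters with the full palindrome are shown, 5′ to 3′ on the gene's strand with the palindrome in capitals, because their genes are the ones of the list for which these letters can be set beside the levels. They are from RefSeq GRCm38.p6: Areg at chr5:91139349-91139648 on the + strand, Btg2 at chr1:134079106-134079405 on the - strand and Dusp1 at chr17:26508423-26508722 on the - strand. The palindrome begins at -61, -166 and -143 relative to the gene's start.
Areg: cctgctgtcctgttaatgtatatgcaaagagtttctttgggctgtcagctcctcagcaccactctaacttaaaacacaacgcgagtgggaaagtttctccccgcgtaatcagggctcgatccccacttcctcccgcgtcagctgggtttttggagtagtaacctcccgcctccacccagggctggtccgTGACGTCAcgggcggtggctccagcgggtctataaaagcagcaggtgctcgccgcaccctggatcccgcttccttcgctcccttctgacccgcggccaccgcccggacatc
Btg2: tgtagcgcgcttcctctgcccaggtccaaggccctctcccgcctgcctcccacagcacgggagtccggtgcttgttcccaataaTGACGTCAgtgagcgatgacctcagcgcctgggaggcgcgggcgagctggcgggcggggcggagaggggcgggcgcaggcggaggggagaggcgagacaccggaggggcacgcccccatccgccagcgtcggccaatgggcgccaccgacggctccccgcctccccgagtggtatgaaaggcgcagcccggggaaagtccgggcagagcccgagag
Dusp1: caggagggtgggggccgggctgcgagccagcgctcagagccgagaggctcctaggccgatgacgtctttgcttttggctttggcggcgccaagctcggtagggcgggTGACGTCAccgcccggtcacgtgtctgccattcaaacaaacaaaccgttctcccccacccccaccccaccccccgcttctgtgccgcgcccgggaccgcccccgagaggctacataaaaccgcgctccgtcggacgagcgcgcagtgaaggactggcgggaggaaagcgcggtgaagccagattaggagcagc

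The 3 genes with this palindrome did not share a direction. Areg, the growth factor amphiregulin, had 707, 0 and 0 counts in KO and 8 and 4 in WT. Btg2, an antiproliferative gene, had 5150, 379 and 1231 counts in KO and 1460 and 1919 in WT, a log2 difference of -0.16 with an SE of 2.04 (edgeR adjusted p = 1). In Areg and Btg2 the KO libraries lay on both sides of WT, with KO 1 highest, and only Dusp1 was lower in all of them. A match of letters is no evidence of binding in these cells.

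The prostaglandin pathway was sparse. Of its 27 genes, 12 were tested, 8 with a log2 fold change above 0 and 3 below, and 10 of the 27 had no count in any of the 5 libraries. The median was 8.33, or 6.30 with genes that had no count in a group at their bound, and it rested on genes near 0 counts in WT and on the filter. It was 0.21 over 17 genes at a mean of at least 10 counts and 0 over 23 without a filter. Of 18 tested without KO 2 and KO 3, 8 were above 0 and 6 below (median 0). Ptges3, a cochaperone also described as a prostaglandin E synthase, was higher in every KO library, with 4120, 2666 and 504 counts against 1 and 6 (edgeR adjusted p = 0.397). Ptgs1 (cyclooxygenase 1) had 2370, 1172 and 0 counts in KO and 10 and 176 in WT. Hpgd, which degrades prostaglandin E2, had 1022, 0 and 0 against 0 and 0. Tbxas1, thromboxane synthase, ran lower in every KO library, with 87, 1103 and 0 counts against 1942 and 4245 (edgeR adjusted p = 0.568), and so did Pla2g15, a lysosomal phospholipase, with 0, 0 and 71.2 CPM against 117.7 and 431 CPM (edgeR adjusted p = 0.688). These were 1 higher and 2 lower of 12 (8.33% and 16.7%), beside 6.73% and 5.25% of all tested genes. No member passed in edgeR, and Ptger4 did with DESeq2 (adjusted p = 8.52e-11), higher in the libraries labelled KO.

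Cytokine and chemokine genes did not share a direction. Of 22 tested, 15 had a log2 fold change above 0 and 7 below (median 2.03), and none passed. The counts became 11 and 12 of 24 (median -0.014) without KO 2 and KO 3, and with limma-voom 10 and 12 (median -0.21). Ccl8 and Ccl6, chemokines of resident macrophages, were higher in every KO library, with 5491, 1396 and 3018 counts against 61 and 2 for Ccl8 and 1246, 6397 and 2076 against 4 and 184 for Ccl6. Their log2 fold changes were 6.20 ± 2.84 and 4.13 ± 2.24 (SE), both with an edgeR adjusted p of 0.381. Osm, oncostatin M, an inducer of STAT3 signalling in stroma, was lower in every KO library, with 6, 0 and 0 counts against 2518 and 3208 (log2 fold change -10.81 ± 5.00, edgeR adjusted p = 0.381). These were 2 and 1 of 22 genes, beside 6.73% and 5.25% of all tested genes.

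The most abundant inflammatory genes overlapped between the genotypes. Il1b was at 3583, 611 and 692 CPM in KO and 1559 and 515 CPM in WT, and the neutrophil attractant Cxcl2 at 3105, 695 and 157 CPM against 2991 and 2948 CPM. Tnf had 1559, 1527 and 0 counts against 76 and 0. Ccl3 and Ccl4, both attractants of monocytes and T cells, had 7808, 0 and 160 counts against 1125 and 938, and 4486, 161 and 1833 against 1249 and 2826. Il10ra, a receptor chain of the anti-inflammatory interleukin 10, had 3053, 0 and 890 counts against 1021 and 146. The summed cytokine level was 11567 CPM in KO 1 and 3653 and 2736 CPM in KO 2 and KO 3, on either side of the 6339 and 6376 CPM of WT.

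NF-kB and interferon genes were lower in every KO library in 5 of 23 cases (21.7%, beside 5.25% of all tested genes) and higher in 2 (8.70%, beside 6.73%). The 5 lower were Nfkbiz, Rela, Rel, Bcl3 and Irf1. Irf1, an interferon-induced transcription factor, had 297, 0 and 660 counts in KO and 1297 and 3333 in WT (log2 fold change -4.07 ± 2.45, edgeR adjusted p = 0.381). Rela, the p65 subunit, had 0 counts in all 3 KO libraries and 234 and 1381 in WT, and Bcl3 had 5, 0 and 0 against 293 and 4, a separation that rested on 4 counts in WT 2. Rel had 0 counts in KO and 19 and 1 in WT, so 2 of the 5 rested on counts near the floor. Nfkbib, an inhibitor of NF-kB, went the other way, with 6, 2 and 3810 counts in KO and 0 and 0 in WT (edgeR adjusted p = 0.381), a separation that rested on 2 counts in KO 2. Nfkbia, the best counted member and a feedback inhibitor of NF-kB, overlapped, at 3319, 947 and 624 CPM against 3529 and 503 CPM. The list's median log2 fold change was -0.82 with 10 genes above 0 and 13 below, and 0 with genes absent from a group at their bound. With KO 2 and KO 3 left out, 10 of 24 were above 0 and 12 below (median -0.011).

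Genes of energy metabolism and translation were described in 3 lists, whose place relative to all tested genes moved with the settings. Of 34 oxidative phosphorylation genes, 26 had a log2 fold change above 0 (median 1.09, 0.0108 above that of all genes), 6 were higher in every KO library (17.6%, beside 6.73%) and 4 lower (11.8%, beside 5.25%). The signs became 13 above 0 and 21 below (median -0.27) without KO 2 and KO 3. Cox7a2 had 629, 3740 and 7992 counts in KO and 272 and 78 in WT, and Atp5a1, an ATP synthase subunit, had 1149, 770 and 1827 against 2185 and 5479. Of 17 glycolysis genes, 13 were above 0 (median 0.79, beside 1.08 over all tested genes), a count that became 11 of 19 without KO 2 and KO 3. The isoform Eno3, typical of muscle, was higher in every KO library, with 2031, 10714 and 6828 counts against 0 and 4. Aldoa had 2003, 27826 and 50553 against 1159 and 13420, which follows the order of the muscle list. Pfkp was the other gene higher in every KO library, and Gapdh and Gpi1 were lower, 2 of 17 in each direction (11.8%, beside 6.73% and 5.25% of all tested genes).

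Of 45 cytosolic ribosomal protein genes, 29 had a log2 fold change above 0 (median 0.42). In every KO library 9 were higher (20%, beside 6.73% of all tested genes) and 1, Rpl7, was lower (2.22%, beside 5.25%). The summed level was 24403, 36208 and 28261 CPM in KO and 15542 and 29099 CPM in WT, so WT 2 lay among the KO libraries. Relative to all tested genes the list's median was -0.65. It was -1.62 with upper-quartile scaling, under which 8 of the 45 were above 0, and above 0 without KO 1 (0.48), without KO 3 (0.45), at a mean of at least 1000 counts (0.46) and without a filter (0.23). On the same relative scale oxidative phosphorylation and glycolysis were at 1.22 and 1.14 with limma-voom and 1.13 and 0.59 without KO 1. They were at 0.65 and 0.81 at a mean of at least 1000 counts, and 1.04 and 0.75 without a filter. With upper-quartile scaling they were at 0.13 and -1.21, without WT 1 at 0.16 and -1.48, and without WT 2 at -0.52 and 1.13. Of the 45, 19 were above 0 and 26 below (median -0.28) without KO 2 and KO 3. No gene of these 3 lists passed in edgeR. Of 22 actin cytoskeleton genes, 9 were above 0 (median -0.24), beside 58.1% of all tested genes. The count was 5 with DESeq2, with thinning or without KO 1, 6 with limma-voom, 2 with upper-quartile scaling and 12 of 23 without KO 2 and KO 3. Actb was at 20106, 10905 and 5980 CPM in KO and 8689 and 14407 CPM in WT, a log2 difference of 0.09 with an SE of 0.45 (edgeR adjusted p = 1) whose sign changed under 7 of 19 alternatives.

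Among nuclear RNAs, the most abundant transcripts did not pass in the edgeR fit with TMM scaling. Rn45s, the ribosomal precursor RNA and the most abundant entry of every library, was at 99090 CPM ± 30033 (SD, n = 3) in KO and 105175 CPM ± 21159 (n = 2) in WT, a log2 difference of -0.09 with an SE of 0.16 (edgeR adjusted p = 0.895). Malat1, a nuclear long noncoding RNA, was at 12859 CPM ± 3156 (n = 3) against 16259 CPM ± 2049 (n = 2), a log2 fold change of -0.34 ± 0.32 (edgeR adjusted p = 0.588). Neat1, the scaffold of paraspeckles, was higher in every KO library, with 21188, 10615 and 30474 counts against 7157 and 16 (log2 fold change 1.81 ± 1.02, edgeR adjusted p = 0.381). So was Gas5, which made 2 of the 6 tested noncoding RNAs of the list (33.3%, beside 6.73% of all tested genes). Rn45s passed with upper-quartile scaling (log2 fold change -2.04, edgeR adjusted p = 1.11e-10), which moved the median of all genes to 0, and with limma-voom (-0.34, adjusted p = 4.93e-44). Malat1 passed with limma-voom (-0.58, adjusted p = 3.86e-07). The Neat1 gap was set largely by WT 2. Rn45s is a repeated sequence, and its counts are uncertain.

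The same contrast can be set beside day 39, where 3 libraries labelled KO and 3 labelled WT were measured. The titles give day 39, while the deposited files carry an earlier day in their names, and the titles were followed. The test of a difference in genotype effect between the days passed for 0 of 6987 genes in edgeR (0%), with 1006 genes at an unadjusted p under 0.05 and 934 passing in DESeq2. Tnnc2 and Lgals6 came closest of the genes named here, both with an edgeR adjusted p of 0.0583. For Tnnc2 the log2 fold change was 2.42 ± 1.58 (SE) at day 0 and -8.65 ± 1.79 at day 39. For Lgals6 it was -11.88 ± 2.63 at day 0 and 1.05 ± 1.68 at day 39, where the counts were 7833, 2047 and 2944 in KO and 1063, 6843 and 1 in WT. Socs3 differed less, at -2.74 ± 1.39 and -0.58 ± 1.24 (edgeR adjusted p of the difference 0.594). The most abundant class II gene, H2-Aa, had -0.42 ± 0.47 at day 0 and -0.09 ± 0.42 at day 39 (edgeR adjusted p of the difference 0.919).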

How the data were processed

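The authors deposited whole-number counts by gene symbol, with 23282 entries a library and 44 repeated symbols, which were kept apart. Per the labels' protocols, Trizol RNA was made into 3′-end libraries with a Lexogen QuantSeq kit. The submitters' processing notes name Bowtie2, edgeR and the build hg19, a human build, although the samples are mouse and the symbols are mouse symbols. Which build and annotation the counts rest on is therefore uncertain, and no coordinates of the counts are given. Strand setting, filters and molecular identifiers are not given in the sources used here.

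The test was that of edgeR 4.0.16 (R 4.3.3), with filterByExpr (6987 tested, 16295 not), TMM scaling, robust dispersions and quasi-likelihood fits with 4 group coefficients over all 11 libraries, contrasting KO with WT at day 0, and that contrast with its day 39 counterpart. Tests are two-sided, with Benjamini-Hochberg adjusted p-values and a threshold of 0.05. A standard error is the fitted log2 fold change over the root of its F statistic. The common biological coefficient of variation was 2.48. CPM use the TMM-scaled total. Floors are 3 counts and cover counting error only. Numbers of genes per library were compared by exact permutation in R. The procedure was run on simulated data. Recovery of changed genes was required only at a spread far below that of these data, so that requirement does not cover data like these.

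Named genes are those that passed, the 10 in each direction with the smallest p among non-overlapping genes with a mean of at least 100 CPM, the 10 with the highest mean CPM, Ptger4 and the sort markers, and in each list the best counted members. Others were chosen after their values were seen, and so were the list members named for separated groups or as markers at 0. The comparison and the gene lists were chosen with earlier results of these data known. Promoters are from RefSeq, matched by symbol (21 of 25 list genes).

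Replicate numbers were checked for pairing. Deviations from the group means correlated at 0.070 for number 1 and 0.026 for number 2 (log2 CPM, pseudocount 1), so the numbers do not pair the libraries. Alternatives covered scaling, test (DESeq2 1.42.0, limma-voom 3.58.1), filters, thinning and leaving out libraries. Some members of the lists are counted but not reported here by name.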

Additional observations from a re-analysis of the deposited data

How the results depend on the processing

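The number of genes that passed at day 0 depended on the test. It was 1 in the edgeR fit, 1 with upper quartile (Rn45s in place of Lgals6), 1249 with DESeq2 (1011 higher and 238 lower in KO), 178 with limma-voom (105 and 73), 2 without robust dispersions and 0 with library-size scaling, no filter, a mean of at least 10 or 1000 counts, only the day 0 libraries, or counts of 10 or fewer set to 0. The edgeR settings with 0 had 70 to 661 genes at an unadjusted p under 0.05. Leaving out 1 library gave 0 to 5, and without KO 2 and KO 3, a choice made after seeing the data, 0. With the replicate number of the titles as a block, 0 genes passed and the median log2 fold change was 1.26. For the difference between days, 0 became 5 with upper quartile, 19 with limma-voom, 934 with DESeq2, 4 without robust dispersions, 2 with DESeq2 size factors or library size, 1 with low counts set to 0 or with thinning, and 0 to 8 with 1 library left out.

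The median log2 fold change of 1.08 became 0.84 with DESeq2 size factors, 0 with upper quartile or without KO 2 and KO 3, 0.63 with DESeq2, 0.56 with limma-voom, 0.16 without a filter, 0.11 at a mean of 1000 counts, 0.55 in the day 0 libraries alone, 0.84 with low counts set to 0, 0.66 with thinning, and 0 to 3.28 with 1 library left out. Genes without overlap, 470 higher and 367 lower, became 2437 and 1057 without KO 2 and KO 3, where 1 KO library is left, and the lower became 572 with upper quartile. The ratio of genes with at least 100 counts was 1.23 to 1.68 with 1 library left out.

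Signs changed in 24 of the 688 values of named genes. Rn45s became 0.14 (low counts set to 0), 0.06 and 0.26 (without KO 1 or WT 2), and ran from -0.42 to 0.26 with 1 library left out. Actb became -0.14 (DESeq2, and its size factors), -1.78 (upper quartile), -0.71 (limma-voom), -0.10 (thinning), and ran from -0.45 to 0.64 with 1 library left out. Psap became 0.051 (low counts set to 0) and ran from -1.04 to 0.16. Col1a1 became -1.59 (upper quartile) and ran from -0.14 to 2.88. Fcgr1 became -1.27 (limma-voom) and ran from -10.34 to 12.40. Without KO 2 and KO 3, H2-Aa became 0.63, H2-Eb1 0.53, H2-Ab1 0.37, Psap 0.68, Cd74 0.25, Col1a1 -0.69 and Ly6c1 -2.25. The causes were not tested. Single genes jumped from 0 to high counts within groups (biological coefficient of variation 2.48), and 1 gene passed after thinning to equal total counts.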

Other observations

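Monocyte and dendritic cell genes, which the sort was meant to reduce, were uneven at day 0 and none passed in edgeR. Of 9 tested monocyte genes, 4 had a log2 fold change above 0 and 5 below. Vcan, a matrix proteoglycan made by monocytes, had 6, 58 and 782 counts in KO and 2551 and 1289 in WT, and Hp, the haemoglobin scavenger haptoglobin, ran the other way with 1151, 4092 and 2104 against 0 and 6. Plac8, a small cysteine-rich protein, had 1, 0 and 0 against 1885 and 2 and an unadjusted edgeR p under the threshold (adjusted p = 0.381). Among the 9, Hp was higher in every KO library (11.1%, beside 6.73% of all tested genes) and Vcan and Plac8 lower (22.2%, beside 5.25%). For Plac8 the separation rested on 2 counts in WT 2, near the floor. The monocyte receptor gene Ccr2 had 5, 2 and 1981 counts against 2399 and 4. Flt3, Zbtb46, Clec9a and Ccr7, which define conventional dendritic cells and their migration, had 0 counts in all 5 libraries, while Sirpa and Mgl2 were lower in every KO library (2 of 4 tested, 50%, beside 5.25% of all tested genes) and Itgax had 2215, 0 and 3763 against 707 and 0. Of the erythroid genes, the globin gene Hba-a1 alone was well counted in all 5 libraries, at 5006, 2921 and 16202 counts against 4638 and 1134.

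Leaving out KO 1 gave 5 genes past the edgeR threshold. Nfkbiz, H2-Aa, Car1 and 1810065E05Rik were lower in KO 2 and KO 3 than in WT, and Cryab, a small heat-shock protein abundant in muscle, was higher. The log2 fold change of Car1, carbonic anhydrase 1 of colonic epithelium, was -14.15 ± 2.49 (SE, edgeR adjusted p = 8.85e-05) in that fit and -1.68 ± 1.51 with KO 1 included (edgeR adjusted p = 0.551). Car1 had 2257, 0 and 0 counts in KO and 87 and 3230 in WT.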
